A study of Saccharomyces cerevisiae and Saccharomyces cerevisiae x Saccharomyces paradoxus and Saccharomyces cerevisiae x Saccharomyces mikatae with 18 samples.

Results

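Transcript levels of the S. bayanus alleles were compared between an interspecific hybrid, where they share a nucleus with a full set of S. cerevisiae alleles, and the S. bayanus homozygote, where they are the only alleles. Members were chosen by sample: the values assigned to S. bayanus in the 2 libraries of the S. cerevisiae x S. bayanus hybrid, and the 2 libraries of the S. bayanus homozygote, 4 of the 18 libraries in all. Other groups served for comparison only, and their strains are not described here. They were the S. cerevisiae alleles of this hybrid with S. cerevisiae homozygote replicates 5 and 6 of 6. The others were the S. cerevisiae hybrids and the homozygotes of S. paradoxus and of S. mikatae, 2 libraries each. The hybrid was strain YYM015, a MATa/MATalpha diploid from the parents BY4716 and JRY9191, with a his3 and a ura3 allele inherited from its S. bayanus parent, a lys2 deletion from its S. cerevisiae parent, and a wild-type copy of each from the other side. The homozygote was the wild-type diploid CBS 7001. Each genotype was a single strain, and the S. bayanus parent of the hybrid has a different strain name from the homozygote, so a difference between these strains and an effect of the hybrid state cannot be told apart. All cultures were grown in YPD at 25 °C to log phase, at an optical density between 0.65 and 0.75, with no treatment, and each genotype had 2 biological replicates. Libraries held sequence from the ends of poly-adenylated transcripts, and each deposited value is a score: the sum of reads on a gene after weighting for GC content, for the same 4730 genes in every library.

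In a hybrid both parental alleles of a gene meet the same proteins and metabolites. An allele's level there reflects its own cis-acting sequence in a shared trans-acting environment, whereas in the homozygote the same allele meets only the regulators of its own species. Comparing 1 set of alleles across both genotypes asks how far its levels depend on that environment, beside any difference between the strains or libraries.

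The S. bayanus scores summed to 3192416 and 2789356 in the hybrid libraries, 48.9% and 49.5% of what both alleles received, and to 6883279 and 6116447 in the homozygotes. Scores were divided by the upper quartile of each column (367 and 334 in the hybrid, 857 and 696.75 in the homozygotes, rescaled to the average column), and these scaled scores are given throughout. Replicates correlated across genes with r = 0.920 in the hybrid and 0.920 in the homozygotes, against 0.839 to 0.863 between the genotypes. The highest genes of a column shared a ceiling: between 4 and 9 genes lay within 1% of the column's maximum, 13 genes in all, among them TDH3, FBA1, RPS31 and RPL33A. Their unscaled maximum was 67704 and 51552 in the hybrid columns, against 127174 and 114555 in the homozygotes, so a ratio between values at the ceiling follows the maxima of the columns. None of the 13 genes passed the test below.

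The marked loci were examined first. LYS2, encoding a reductase of lysine synthesis, is the locus deleted on the S. cerevisiae side: its S. cerevisiae allele had 0 and 1.54 in the hybrid, against 180 and 135 in the S. cerevisiae homozygotes counted with the same pair of genomes. The S. bayanus allele of LYS2 had 82.8 and 120 in the hybrid and 58.3 and 39.0 in the homozygotes, a log2 fold change of 1.05 (SE 0.38) with an adjusted p of 0.234. URA3, of pyrimidine synthesis, had 1220 and 1256 in the hybrid and 1503 and 904 in the homozygotes. Because the kind of ura3 allele is not given in the sources used here, its transcript level checks nothing. HIS3 was not analysed here. Haploid-specific and mating genes and meiotic genes, the markers of haploid and of sporulating cells, gave no call by limma over the 4 columns. Of 13 and 12 tested members, 3 and 1 had an unadjusted p under 0.05, all higher. Their median log2 fold changes were 0.23 and 0.30. Of the haploid-specific and mating genes 7 lay above 0 and 6 below, and of the meiotic genes 7 above and 5 below. With the spread estimated over all 24 columns of the series, 2 of 15 haploid-specific and mating genes passed, both higher. There 2.08% of all genes were higher, and 0 of 16 meiotic genes passed. GPA1, a G protein of the mating pathway that diploids repress, was chosen after its values were seen. It had 56.2 and 56.9 in the hybrid and 18.4 and 15.6 in the homozygotes. NEJ1 and STE6, the tested mating genes with the highest means, had log2 fold changes of -0.06 and -0.13. In bulk cultures, fewer cells of one kind and less RNA per cell cannot be told apart.

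Of 4492 genes with a mean scaled score of at least 10, 47 differed between hybrid and homozygote at an adjusted p under 0.05 (1.05%), 16 higher and 31 lower in the hybrid. At an unadjusted p under 0.05 there were 961 (21.4%). The median log2 fold change over all genes was -0.02, and the middle 50% of genes lay between -0.51 and 0.43. For the S. cerevisiae alleles of the same hybrid, the same test called 6 of 4526 genes (0.133%), and 824 had an unadjusted p under 0.05. It called 6 of 4496 (0.133%) for S. paradoxus alleles and 0 of 4492 for S. mikatae alleles. There, 334 and 368 had an unadjusted p under 0.05. The 47 calls were made with all 4 libraries and were not kept without any one of them. Such a fit leaves 1 library in a group and has less power. The loss therefore does not show which calls rest on a single library. When the spread was estimated over all 24 columns of the series, 264 of 4611 genes passed (5.73%), 96 higher (2.08%) and 168 lower (3.64%), 40 of them among the 47, and 132 to 162 genes passed without one or another of the 4 libraries.

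**Figure D1:**
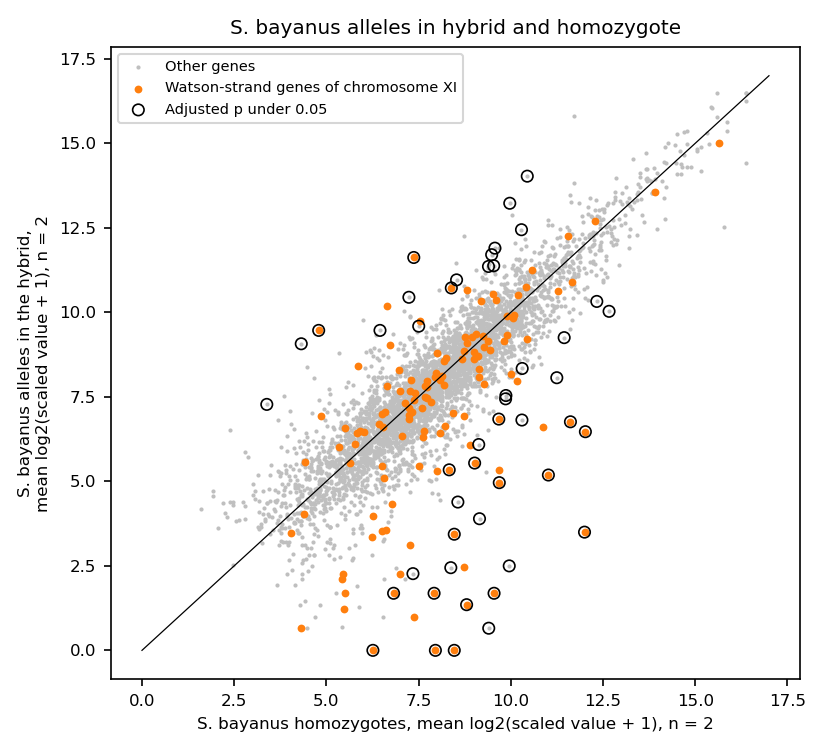
Mean log2(scaled score + 1) of each of the 4492 tested genes in the S. bayanus homozygotes (horizontal axis, n = 2) and of the same S. bayanus alleles in the hybrid (vertical axis, n = 2). The line marks equal levels, orange points are genes on the Watson strand of chromosome XI, and circles are the 47 genes past an adjusted p of 0.05, of which 19 are orange.

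The calls were concentrated at one place. Of the 47 genes, 22 lie on chromosome XI of S. cerevisiae, whose gene order and strands are used here for all species, and 19 of these are on its Watson strand: 16 lower and 3 higher. That is 14.6% of the 130 Watson-strand genes tested, against 2.33% of the 129 Crick-strand genes of the same chromosome and 0.591% of genes on the other 15 chromosomes. The SD of the log2 fold change was 2.55 on the Watson strand of chromosome XI, against 0.88 on its Crick strand and 0.92 elsewhere. In 19 Watson-strand genes both hybrid values lay under a 10th of the lower homozygote value. Of these 19, 12 met the same criterion for the S. cerevisiae alleles of the hybrid against their own homozygote, 10 for the S. paradoxus alleles of another hybrid and 8 for the S. mikatae alleles of the third, libraries that the S. bayanus comparison does not use. Elsewhere in the genome 11 genes met it for S. bayanus, and of these 1 met it for S. cerevisiae and 0 for S. paradoxus and S. mikatae. The medians of whole chromosomes, as ordered in S. cerevisiae, lay between -0.12 and 0.09, so none of these was shifted as a whole. S. bayanus chromosomes differ from them by translocations, so a shift of a chromosome of S. bayanus itself could be split over several medians. Whether the values on this strand reflect transcript levels, or the gene annotation with which the hybrid libraries were counted, was not tested, and scores near 0 there are given as deposited values.

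TIF1, encoding translation initiation factor eIF4A, had one of the 2 highest homozygote levels among the genes called lower on this strand, with VMA5. Its S. bayanus allele had 20.7 and 4.88 in the hybrid, against 3344 and 5007 in the homozygotes, a log2 fold change of -8.50 (SE 0.73, adjusted p = 0.0391). The S. cerevisiae allele of TIF1 had 18.05 and 26.2 in that hybrid and 3034 and 4548 in homozygotes. In the other hybrids TIF1 had 1.79 and 1.22 (S. paradoxus alleles, against 7609 and 4453 in homozygotes) and 11.5 and 35.7 (S. mikatae alleles, against 3286 and 2660). Each of these hybrid columns of TIF1 was below each homozygote column by more than 10-fold. TIF1 has a near-identical copy, TIF2, and only reads with a unique position were kept, so its level is less certain than that of a single-copy gene.

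UTP30, the next listed Watson-strand gene after TIF1 and a factor of small-subunit assembly, moved the other way. It had 2980 and 3335 in the hybrid and 151 and 179 in the homozygotes (log2 fold change 4.25, SE 0.19, adjusted p = 0.0167). The S. cerevisiae, S. paradoxus and S. mikatae alleles of UTP30 were higher in their hybrids too, without passing the test. Their log2 fold changes were 2.39, 2.98 and 2.38. TIF1 and UTP30 together had 3001 and 3340 in the hybrid and 3495 and 5187 in the homozygotes, a log2 difference of -0.43. TRM2, a tRNA methyltransferase on the same strand, had 1698 and 1677 in the hybrid and 349 and 319 in the homozygotes (log2 fold change 2.33, SE 0.16, adjusted p = 0.031).

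TTI1, of the ASTRA complex, had 673 and 741 in the hybrid and 24.7 and 28.8 in the homozygotes (log2 fold change 4.67, SE 0.23, adjusted p = 0.0167). Its S. cerevisiae, S. paradoxus and S. mikatae alleles had log2 fold changes of 1.94, 2.73 and 2.36, without passing. YKL033W-A, the Watson-strand neighbour of TTI1, had 115 and 112 in the hybrid and 776 and 859 in the homozygotes. The pair summed to 788 and 853 in the hybrid against 801 and 888. VPS51, of the GARP tethering complex, was listed at 0 in both hybrid columns, against 259 and 236 in the homozygotes (adjusted p = 0.0216). With the next gene ALY1 it summed to 343 and 335 in the hybrid and 334 and 280 in the homozygotes. Elsewhere on the strand the sum with the next gene was low as well. VMA5, a subunit of the vacuolar ATPase, had 85.8 and 89.4 in the hybrid and 2983 and 5800 in the homozygotes, and the next gene SMY1 was lower as well (2.96 and 1.63, against 108 and 117). CWP1, a mannoprotein of the cell wall, had 42.9 and 29.3 in the hybrid and 2136 and 2015 in the homozygotes, and CWP1 with its next gene YJU2 still summed to 82.8 and 82.9, against 2146 and 2055.

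**Figure D2:**
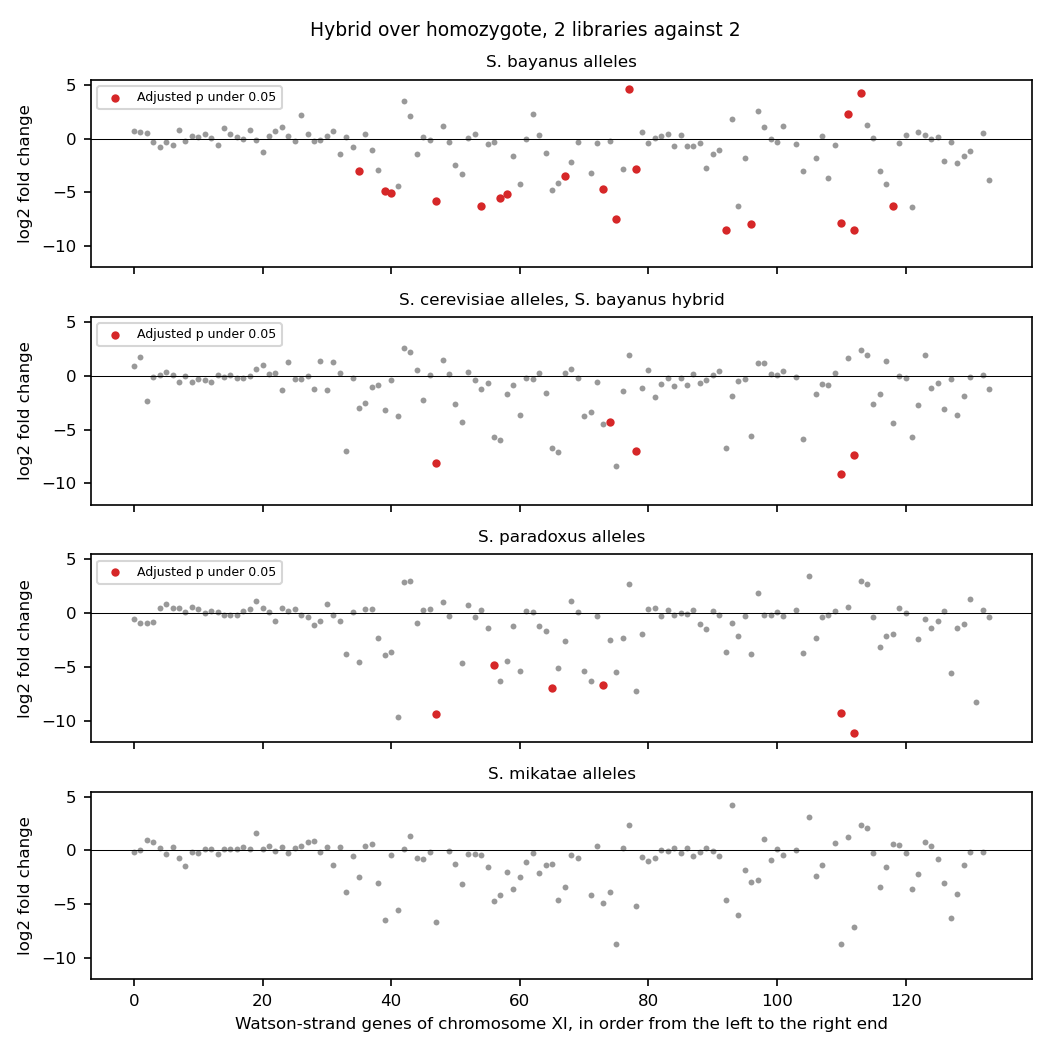
Log2 fold change, hybrid over homozygote (2 libraries against 2), of each Watson-strand gene of chromosome XI in S. cerevisiae gene order, with 1 panel per species of allele and red points past an adjusted p of 0.05. In the S. bayanus panel 19 genes are red, and points far below 0 recur at the same positions in the other panels.

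Also on this strand were MEH1, of the EGO complex at the vacuole, listed at 0 in both hybrid columns against 303 and 411 in the homozygotes (adjusted p = 0.0187), and UGP1, the UDP-glucose pyrophosphorylase that feeds glycogen and cell wall synthesis, with 1.48 and 1.63 against 398 and 498 (adjusted p = 0.0167). MET1, a methyltransferase of siroheme synthesis, had 2.96 and 1.63 in the hybrid and 294 and 198 in the homozygotes (adjusted p = 0.034). SBA1, a co-chaperone of Hsp90, had 109 and 106 in the hybrid and 3386 and 2913 in the homozygotes, a log2 fold change of -4.86 (SE 0.18, adjusted p = 0.0167). For hybrid values this close to 0 the fold change depends on the added constant of 1, so only the scores are given for VPS51, MEH1, UGP1 and MET1.

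Without the Watson-strand genes of chromosome XI, 28 of 4362 genes kept their call (0.642%), 13 higher and 15 lower, if p-values stay adjusted over all genes. With p-values adjusted again over the remaining genes, 5 passed (TOR1, TVS1 and YIL001W lower, TAH18 and TRP3 higher), and 899 had an unadjusted p under 0.05. In the fit over 24 columns 199 genes of 4478 passed without that strand, 86 higher and 113 lower. The genes below lie outside it unless stated. Of the called genes named below, BRR2, ATP20, MRPL23, HXK1, MET10 and CHS1 did not pass in the fit over 24 columns with all genes. Their adjusted p was 0.131, 0.205, 0.0521, 0.0624, 0.212 and 0.144 there.

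Among called genes away from that strand whose mean reached 100, DUG1, TOR1 and BNA6 had the lowest S. bayanus values in the hybrid, and here the S. cerevisiae allele of the same cells was not low. DUG1, a dipeptidase of glutathione breakdown, had 1.48 and 0 in the hybrid and 622 and 734 in the homozygotes (adjusted p = 0.0287). Its S. cerevisiae allele had 1136 and 1003 in the hybrid and 1611 and 1547 in homozygotes. TOR1, a kinase of the growth-controlling TORC1 complex, had 4.44 and 4.88 in the hybrid and 1003 and 984 in the homozygotes, a log2 fold change of -7.46 (SE 0.25, adjusted p = 0.0167). The S. cerevisiae allele of TOR1 had 190 and 326 in the hybrid and 140 and 104 in homozygotes.

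BNA6, an enzyme of NAD synthesis from tryptophan, had 2.96 and 6.50 in the hybrid and 277 and 395 in the homozygotes, a log2 fold change of -5.93 (SE 0.48, adjusted p = 0.0369). Its S. cerevisiae allele had 594 and 532 against 617 and 612. Tests of the difference between the alleles' changes, S. bayanus minus S. cerevisiae, gave -8.18 for DUG1 (adjusted p = 0.00722), -8.50 for TOR1 (0.00636) and -5.80 for BNA6 (0.0142). DUG1 and BNA6 are on the Crick strand of chromosome VI, where 3 of 41 tested genes were called (7.32%, against 1.05% of all genes). The third is HXK1, below. TVS1 had 14.8 and 13 in the hybrid and 524 and 615 in the homozygotes, a log2 fold change of -5.26 (SE 0.26, adjusted p = 0.0167). In all 4 genes both hybrid values lay below both homozygote values, as in 55.5% of all genes tested the groups did not overlap in one direction or the other.

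Genes higher in the hybrid were led by TAH18, a reductase of cytosolic iron-sulfur protein assembly, with 515 and 559 in the hybrid and 17.7 and 20.3 in the homozygotes (log2 fold change 4.75, SE 0.24, adjusted p = 0.0167). Its S. cerevisiae allele had 108 and 138 in the hybrid and 120 and 71.6 in homozygotes, and the difference between the changes was 4.35 (adjusted p = 0.018). VMA16, a membrane subunit of the vacuolar ATPase, had 20170 and 13844 in the hybrid and 1317 and 1476 in the homozygotes (log2 fold change 3.58, SE 0.28, adjusted p = 0.0369). THR1, homoserine kinase of threonine synthesis and the gene just upstream of VMA16, rose too, with 3893 and 3746 in the hybrid and 727 and 791 in the homozygotes (log2 fold change 2.33, SE 0.17, adjusted p = 0.0333).

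ATP20, subunit g of the mitochondrial ATP synthase, had 9547 and 9628 in the hybrid and 1218 and 827 in the homozygotes (log2 fold change 3.26, SE 0.26, adjusted p = 0.0369). TRP3, of tryptophan synthesis, had 1386 and 1401 in the hybrid and 140 and 160 in the homozygotes (3.21, SE 0.18, adjusted p = 0.0198). FTR1, the high-affinity iron permease, had 3280 and 3398 in the hybrid and 776 and 657 in the homozygotes (2.22, SE 0.18, adjusted p = 0.0369). In each of the 3 genes the replicates of the hybrid lay within 4% of each other.

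REA1, a large ATPase that strips factors from the maturing 60S subunit, had 5599 and 5546 in the hybrid and 1227 and 1274 in the homozygotes (log2 fold change 2.15, SE 0.17, adjusted p = 0.0369). BRR2, a helicase of the spliceosome, had 2229 and 1779 against 385 and 353, and ART10, an adaptor for ubiquitination of membrane proteins, had 822 and 606 against 74.1 and 101 (adjusted p = 0.0369 and 0.0459).

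**Figure D3:**
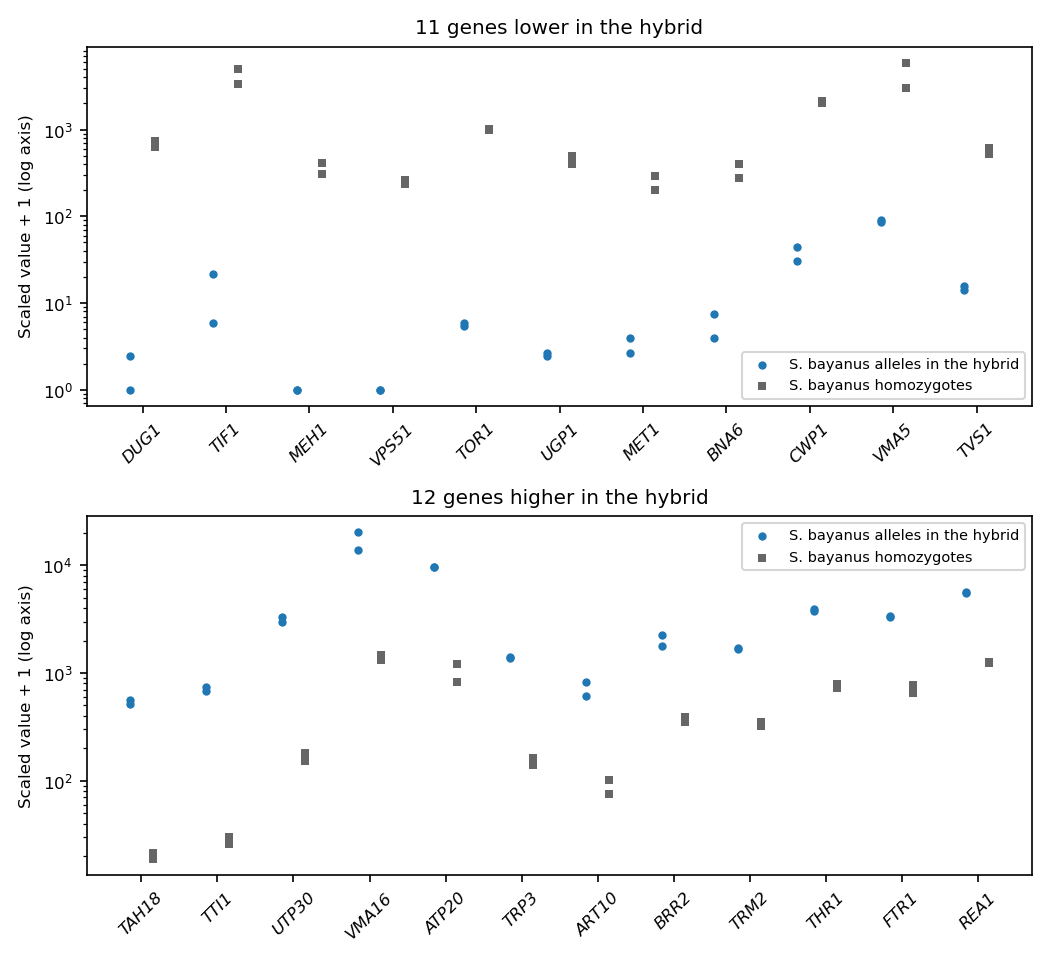
Scaled scores + 1 on a log axis for 11 of the 12 genes with the smallest and the 12 with the largest log2 fold change among those past an adjusted p of 0.05, a mean scaled score of 100 or more and groups that do not overlap, in the hybrid (blue circles, left) and homozygote (grey squares, right), 1 point per library. MEH1 and VPS51 lie at 1 in the hybrid because their scores are 0, and no gene has overlapping groups.

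Groups of genes with a shared role were then described by counts and medians beside the median of all genes, -0.02. Mitochondrial ribosomal proteins, which are encoded in the nucleus and translate the few messages of the mitochondrial genome, had the lowest median among groups of over 20 genes. Of 73 tested, 69 had a lower mean in the hybrid, the median was -0.83, and 2 passed the test, both lower (0.69% of all genes tested were called lower). At an unadjusted p under 0.05, 50 were lower and 2 higher, against 21.4% of all genes in either direction. Over the 4 pairings of a hybrid with a homozygote library the median lay between -0.91 and -0.83. MRPL23 had 578 and 640 in the hybrid and 2542 and 3065 in the homozygotes (log2 fold change -2.20, SE 0.19, adjusted p = 0.041), and MRP17 had 324 and 322 against 1242 and 1293 (-1.97, SE 0.16, adjusted p = 0.0369). In the fit over 24 columns 15 members were lower and 0 higher (3.64% of all genes were lower there), among them MRP10 with 481 and 304 against 1529 and 1264.

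The S. cerevisiae alleles of the same 73 genes had a median of 0.85 in the same hybrid against their own homozygote, with 64 of 73 above 0. The difference between the changes passed the test in 13 of 73, all with the S. bayanus allele lower, where 1.25% of all genes tested did so, and in 3 of 73 when the shared hybrid library was a block. MRP17 differed by -3.01 (adjusted p = 0.0362), MRP10 by -3.01 (0.0275) and MRPL20 by -2.27 (0.018). With that block MRP17 no longer passed (adjusted p = 0.0704), while MRP10 and MRPL20 did (0.0498 each). For MRPL20 the S. bayanus allele had 816 and 897 in the hybrid and 2245 and 2070 in the homozygotes. The same genes had medians of 0.24 for S. paradoxus alleles and 0.12 for S. mikatae alleles in their hybrids.

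Genes of the respiratory complexes and the ATP synthase had the highest median of the groups. These are the enzymes of the inner mitochondrial membrane that pass electrons to oxygen and make ATP. Of 28 tested, 24 had a higher mean in the hybrid, with a median of 1.24, and 1 passed, ATP20 above (0.356% of all genes tested were called higher), while 16 were higher and 0 lower at an unadjusted p under 0.05. In the fit over 24 columns 5 passed, all higher (2.08% of all genes were), and ATP20 was not among them (adjusted p = 0.205). CYC1, cytochrome c, had 3403 and 7028 in the hybrid and 431 and 425 in the homozygotes. ATP1, the alpha subunit of the ATP synthase, had 15998 and 13207 against 3196 and 3501, QCR8 of complex III had 284 and 270 against 69.0 and 70.1, and COX8 and COX9 of complex IV had 287 and 309 against 65.2 and 114, and 154 and 163 against 32.9 and 31.9.

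Both alleles of the hybrid had a median above 1 here: the S. cerevisiae alleles of the 28 genes had a median of 1.38, with 26 above 0, whereas S. paradoxus and S. mikatae alleles had medians of -0.25 and -0.12 in their hybrids. CYC1 differed by 0.10 between the S. bayanus and the S. cerevisiae change (adjusted p = 0.941), and no member passed that test. For QCR8 the change of the S. bayanus allele exceeded that of the S. paradoxus allele (adjusted p = 0.041) and of the S. mikatae allele (0.0409). Their shared hybrid library means that the 2 alleles of 1 hybrid are not independent samples.

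Ribosome biogenesis factors, the nucleolar proteins that process ribosomal RNA and assemble subunits, had a higher mean in the hybrid in 98 of 110 genes. Their median was 0.72, between 0.49 and 0.91 over the pairings, and 46 were higher and 1 lower at an unadjusted p under 0.05. The test passed 2, both higher (0.356% of all genes were called higher): UTP30, which lies on the Watson strand of chromosome XI, and UTP8. Alleles of UTP30 from the other species were higher in their hybrids as well, as given above. UTP8 had 2672 and 2650 in the hybrid and 716 and 768 in the homozygotes (log2 fold change 1.84, SE 0.16, adjusted p = 0.0412). In the fit over 24 columns 13 were higher and 1 lower, against 2.08% and 3.64% of all genes. MAK16 had 1060 and 1211 against 487 and 488, SDA1 1303 and 1866 against 709 and 612, and DHR2, the lower one and again on the Watson strand of chromosome XI, 79.9 and 92.6 against 254 and 284. The S. cerevisiae alleles had a median of 0.26 with 80 of 110 above 0. Cytosolic ribosomal proteins, the products these factors assemble, had a median of 0.18 over 106 genes and no call by limma over 4 or over 24 columns, with 9 at an unadjusted p under 0.05.

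**Figure D4:**
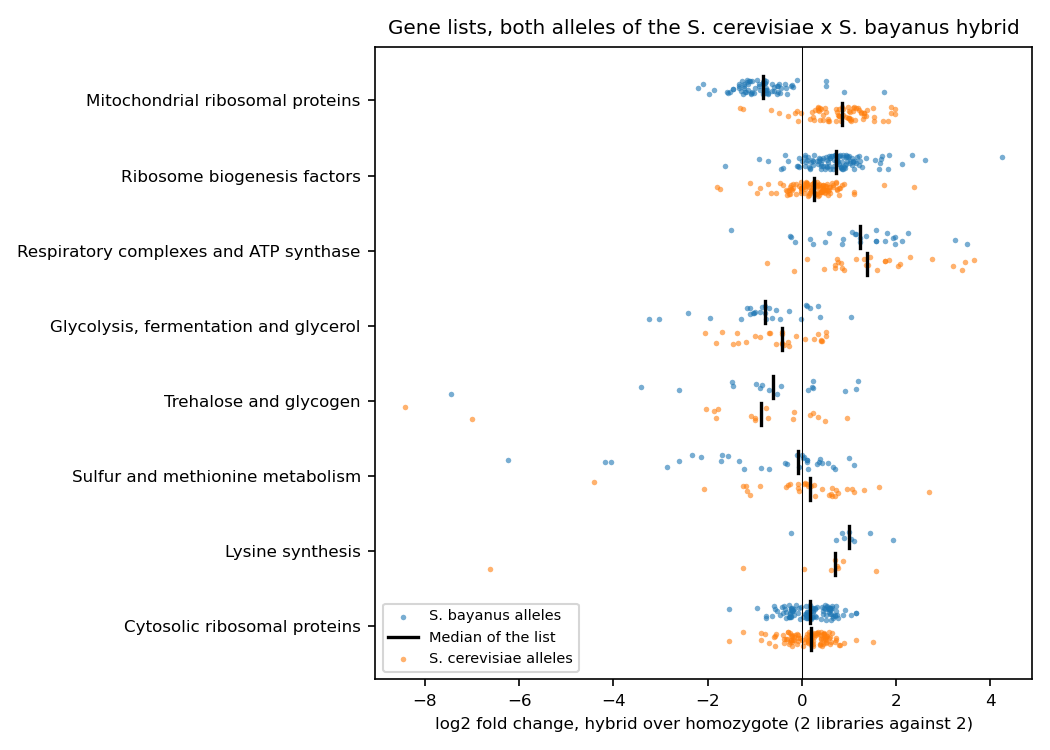
Log2 fold change, hybrid over homozygote (2 libraries against 2), of each tested member of 8 gene groups for the S. bayanus alleles (blue, above) and for the S. cerevisiae alleles of the same hybrid (orange, below), with black bars at the medians. Mitochondrial ribosomal proteins lie at a median of -0.83 for S. bayanus and 0.85 for S. cerevisiae alleles, and respiratory genes at 1.24 and 1.38.

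Promoter sequence of these groups was examined in S. cerevisiae (RefSeq R64), in the 250 bases before each start codon and on both strands; the S. bayanus genome was not used here. The letters CCAAT, the core bound by the Hap complex that controls respiratory genes, were in 23 of 28 promoters of the respiratory group (82.1%), against 36.0% of all 4722. The PAC element GATGAG was in 99 of 110 ribosome biogenesis promoters (90.0% against 17.1%) and the RRPE element AAAAATTT in 89 of 110 (80.9% against 14.8%). CACGTG, the site of Cbf1 in sulfur genes, was in 11 of 34 promoters of sulfur and methionine genes (32.4% against 2.82%). Promoters of the 73 mitochondrial ribosomal proteins held CCAAT in 32.9%, GATGAG in 13.7%, AAAAATTT in 6.85% and CACGTG in 4.11%. The windows of 5 called genes are printed to show these letters in place, with every match to the named motifs in capitals. In UTP8 the paired PAC matches share a letter. In the same 250 bases other named genes held no match: MET1 had no CACGTG, CYC1 no CCAAT, and UTP30 no GATGAG, although it had AAAAATTT.
ATP20 (chrXVI:599686-599720, plus strand, CCAAT read as its complement): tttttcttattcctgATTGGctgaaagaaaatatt
UTP8 (chrVII:750161-750218, minus strand, RRPE then PAC): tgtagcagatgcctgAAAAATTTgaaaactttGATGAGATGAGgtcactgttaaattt
REA1 (chrXII:363923-363975, minus strand, RRPE then PAC): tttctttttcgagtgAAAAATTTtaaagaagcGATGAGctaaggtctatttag
MET14 (chrXI:439593-439628, minus strand, CACGTG): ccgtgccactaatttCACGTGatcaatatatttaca
MET10 (chrVI:213063-213101, plus strand, CACGTG): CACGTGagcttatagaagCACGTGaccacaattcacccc
A match is a description of the S. cerevisiae sequence and not of a bound site in either allele.

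Sulfur and methionine metabolism, which reduces sulfate to sulfide and builds it into methionine and cysteine, had a median of -0.08 over 34 genes, with 3 calls, all lower (0.69% of all genes were called lower): MET1 on the Watson strand of chromosome XI, and MET14 and MET10. MET14, the kinase of activated sulfate, had 16.3 and 24.4 in the hybrid and 392 and 364 in the homozygotes (log2 fold change -4.18, SE 0.31, adjusted p = 0.034). Its S. cerevisiae allele had 34.7 and 12.3 against 10.6 and 13.2, and the changes differed by -4.94 (adjusted p = 0.0375, and 0.0704 with the shared library as a block). MET14 lies beside MRP17 on the Crick strand of chromosome XI. MET10, a subunit of sulfite reductase, had 209 and 164 in the hybrid and 885 and 984 in the homozygotes (-2.33, SE 0.21, adjusted p = 0.0433). MET17, which fixes sulfide, had 1408 and 1242 against 5278 and 3597 without passing (adjusted p = 0.0888), but its change differed from that of the S. cerevisiae allele by -4.42 (adjusted p = 0.0142).

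Glycolysis, fermentation and glycerol genes had a lower mean in the hybrid in 22 of 28, a median of -0.79 and 2 calls, both lower (0.69% of all genes were called lower). GPP2, a phosphatase that makes glycerol, had 71.0 and 63.4 in the hybrid and 551 and 568 in the homozygotes (log2 fold change -3.04, SE 0.20, adjusted p = 0.0282). HXK1, a hexokinase, had 182 and 164 in the hybrid and 887 and 971 in the homozygotes (-2.42, SE 0.18, adjusted p = 0.034). In the fit over 24 columns 5 were lower and 0 higher (3.64% of all genes were lower there), of which TDH2 and FBA1 touch the ceiling of a column. S. cerevisiae, S. paradoxus and S. mikatae alleles had medians of -0.42, -0.31 and -0.09. Trehalose and glycogen genes, the reserve carbohydrates, had a median of -0.61 in 18 genes, and the single call, against 0.69% of all genes called lower, was UGP1 on the Watson strand of chromosome XI. S. cerevisiae alleles of that group had a median of -0.87, S. paradoxus -0.59 and S. mikatae -0.48.

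Lysine synthesis had a median of 1.01, with 8 of 9 genes above 0 and no call by limma, 4 genes having an unadjusted p under 0.05. LYS21, homocitrate synthase, had 1199 and 991 in the hybrid and 305 and 261 in the homozygotes (log2 fold change 1.95, SE 0.20, adjusted p = 0.0563), and passed in the fit over 24 columns (adjusted p = 0.016). LYS14, the activator of the pathway, had 998 and 1032 against 810 and 387. S. cerevisiae alleles of the 9 genes had a median of 0.70. Among aromatic amino acid genes TRP3 was the 1 call of 14 (0.356% of all genes were called higher), with a median of 0.47. Leucine, isoleucine and valine genes had a median of 0.47 over 9, and ILV5, the most abundant, had 6521 and 7284 in the hybrid and 17552 and 19676 in the homozygotes (adjusted p = 0.0965). Histidine genes had 0.46 over 5, with HIS1 at 1803 and 3183 against 1153 and 1107. Arginine genes had -0.25 over 13, with CAR2 at 458 and 431 against 407 and 534. The branched-chain, histidine and arginine groups held no call by limma, with 5, 1 and 2 genes at an unadjusted p under 0.05.

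Iron uptake had 1 call of 22, FTR1 (0.356% of all genes were called higher), with a median of -0.02. At an unadjusted p under 0.05, 4 genes were higher and 5 lower, and 12 of the 22 had a lower mean in the hybrid. Over 24 columns 2 passed as higher and 1 as lower, against 2.08% and 3.64% of all genes. FET3, the oxidase that works with FTR1, had 2638 and 1537 in the hybrid and 545 and 686 in the homozygotes and passed over 24 columns (adjusted p = 0.00896). The FTR1 change exceeded that of the S. mikatae allele by 4.15 (adjusted p = 0.00743), whose values were 2579 and 2554 in the hybrid and 10645 and 8996 in the homozygotes. Phosphate genes had no call by limma in 19, with 10 at an unadjusted p under 0.05. PHO84, the phosphate permease, had 3205 and 4401 against 1141 and 1363 (adjusted p = 0.0902), and its change exceeded that of the S. cerevisiae allele by 2.64 (adjusted p = 0.0464).

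Cell wall genes had 2 calls of 14, both lower (0.69% of all genes were called lower), and a median of -0.43: CWP1 above, and CHS1, a chitin synthase of cell separation, with 1071 and 1019 in the hybrid and 7361 and 5726 in the homozygotes (log2 fold change -2.64, SE 0.21, adjusted p = 0.0369). For CHS1 the change differed from that of the S. cerevisiae allele by -3.83 (adjusted p = 0.018, and 0.183 over 24 columns). Heat shock proteins and chaperones had 1 call of 29, SBA1 on the Watson strand of chromosome XI (0.69% of all genes were called lower), and a median of 0.09. At an unadjusted p under 0.05, 4 genes were higher and 3 lower. Over 24 columns 2 of 30 passed as higher and 3 as lower, against 2.08% and 3.64% of all genes. SIS1, an Hsp40 co-chaperone, had 667 and 367 in the hybrid and 95.6 and 63.1 in the homozygotes and passed over 24 columns (adjusted p = 0.00255).

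The remaining 11 groups held no call by limma over 4 columns among 182 genes, where 1.05% of all genes were called. Of the 182, 30 had an unadjusted p under 0.05, against 21.4% of all genes. Over 24 columns 1 citrate cycle gene was higher and 1 lower, 2 ergosterol genes were lower and 2 of oxidative stress defence higher. Of all genes, 2.08% were higher and 3.64% lower there. Medians were 0.18 for 36 proteasome genes, -0.03 for 23 genes of the citrate cycle, 0.14 for 9 hexose transporters and sensors, 0.05 for 14 purine and 0.14 for 11 pyrimidine genes, 0.00 for 27 ergosterol genes, -0.02 for 13 thiamine genes, -0.05 for 8 histones, -0.12 for 12 genes of zinc and copper, -0.21 for 22 of oxidative stress defence and -0.97 for 7 galactose genes. TSA1, an abundant peroxiredoxin, had 19242 and 18108 in the hybrid and 41511 and 31698 in the homozygotes (adjusted p = 0.223). HXT2, a hexose transporter, had 9229 and 6492 against 5167 and 3753 (adjusted p = 0.258). PRE3 of the proteasome had 49518 and 34586 against 31369 and 22892 (adjusted p = 0.441), and KGD2 of the citrate cycle 27353 and 14530 against 14485 and 15846. RPN5, also of the proteasome, had 3242 and 2114 against 4470 and 2889. ACO1, ADE6, RSC30 and IDI1 varied by more than 5-fold between the hybrid replicates, for example 1154 and 6655 for ACO1.

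The other members that the naming rule gives for groups without a call did not pass the test. The histone genes HTA2 and HTA1 had 5500 and 4285, and 4284 and 7024, in the hybrid, against 5065 and 4471, and 3000 and 3111, in the homozygotes. SNZ1 and PHO3, listed in the thiamine group, had 3332 and 3892, and 3573 and 4319, against 3753 and 3692, and 6931 and 2282. ERG2 of ergosterol synthesis had 9876 and 8907 in the hybrid and 7209 and 11719 in the homozygotes. SOD1, the copper-zinc superoxide dismutase, had 13037 and 13599 against 20849 and 16910, and the peroxiredoxin AHP1 had 19543 and 15891 against 35436 and 17485. The genotypes overlapped for AHP1 and not for SOD1 (adjusted p = 0.587 and 0.386).

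URA1 and FCY1, of pyrimidine metabolism, had 2281 and 2634, and 1086 and 978, in the hybrid, against 1709 and 1352, and 1407 and 1575, in the homozygotes (adjusted p = 0.195 and 0.208). ADE13 of purine synthesis had 9952 and 2494 against 9479 and 12487. LEU1 of leucine synthesis had 7463 and 2649 in the hybrid and 3924 and 2732 in the homozygotes. HIS5 had 284 and 432 against 369 and 310, and CPA1 of arginine synthesis 374 and 289 against 296 and 513, so in these 3 amino acid genes the genotypes overlapped. The galactose regulators GAL4 and GAL3 had 99.1 and 47.1, and 17.7 and 89.4, in the hybrid, against 123 and 149, and 128 and 125, in the homozygotes (adjusted p = 0.321 and 0.357). Of the markers of haploid and sporulating cells, NEJ1 had 544 and 419 against 536 and 465, STE6 155 and 138 against 176 and 146, ZIP1 68.0 and 283 against 72.8 and 11.7, and DIT1 45.8 and 109 against 14.6 and 53.8.

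Whether the S. bayanus alleles changed otherwise than those of the other species was tested gene by gene. Against the S. cerevisiae alleles of the same hybrid, 84 of 4575 genes differed (1.84%), 27 with a higher and 57 with a lower S. bayanus change. Both alleles come from the same 2 hybrid libraries, and with the library as a block 39 genes differed, 18 higher and 21 lower, of which 33 were among the 84. Against S. paradoxus alleles 13 of 4563 differed (0.285%), and against S. mikatae alleles 35 of 4563 (0.767%). Leaving out single libraries gave 0 to 47, 0 to 18 and 0 to 10 genes, and without the Watson strand of chromosome XI the counts were 64, 3 (DUG1, TOR1 and VMA16) and 10. PGM1, a phosphoglucomutase encoded on that strand, is one of the genes that were low in the other hybrid columns and not in the S. bayanus ones. Its S. bayanus allele had 469 and 458 in the hybrid and 381 and 474 in the homozygotes, while the S. cerevisiae allele had 6.94 and 3.08 in the same hybrid and 700 and 756 in homozygotes (difference 7.13, adjusted p = 0.00722). RGT1, a glucose-responsive repressor of hexose transporter genes on the same strand, had 176 and 180 against 206 and 197 for S. bayanus and 27.8 and 30.8 against 548 and 595 for S. cerevisiae (difference 4.07, adjusted p = 0.00722).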

How the data were processed

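The members and gene lists were chosen with earlier results of these data known. As deposited by the authors, each score is the sum of 3′-end reads per gene, mapped with Bowtie 0.12.7 (CASAVA 1.7 is also named in the submitters' processing notes) to both genomes of a species pair, with unique hits kept, weighted for GC content and rounded. Scores are not read counts, so no count model or counting interval was used. Columns were divided by their upper quartile, and log2(scaled score + 1) of genes with a mean of at least 10 was tested with limma 3.58.1 (R 4.3.3, variance trend on the mean), over the 4 columns (8 for differences between alleles), with Benjamini-Hochberg adjustment over all genes. The code was tested on simulated data. Genes were named by a rule: LYS2 and URA3, the 12 largest and 12 smallest changes past adjusted p 0.05 a mean of 100 or more and groups that did not overlap, up to 4 called members per list (otherwise the 2 with the highest mean), and the 3 largest differences per species. GPA1, YIL001W, DHR2, FET3, SIS1, MET17, YKL033W-A, ALY1, SMY1, YJU2, CYC1, ATP1, QCR8, COX8, COX9, MRP10, MRPL20, MAK16, SDA1, TDH2 and FBA1 were chosen after their values were seen. One gene that the rule names is not reported here, and RPS31, RPL33A, ADE6, RSC30 and IDI1 are given without values. Gene names, strands and neighbours are from the R64 annotation, which matched 4722 of 4730 identifiers; S. bayanus chromosomes differ from it by translocations. Alternatives covered scaling, pseudocount, filter, trend, replicate block, thinning, wider fits and single libraries.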

Additional observations from a re-analysis of the deposited data

Results flagged for a closer look

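Named genes whose change in the S. bayanus alleles differed from that of another species' alleles by the test of the difference (limma, adjusted p under 0.05) are given as log2 differences, S. bayanus minus the other. Against the S. cerevisiae alleles of the same hybrid these were LYS2 7.67 (adjusted p = 0.0169, the locus deleted on the S. cerevisiae side), PGM1 7.13, TAH18 4.35, RGT1 4.07, PHO84 2.64 and REA1 1.99 (0.0258) on the higher side, and TOR1 -8.50, DUG1 -8.18, BNA6 -5.80, MET14 -4.94, CHS1 -3.83 and MRP17 -3.01 on the lower. With the shared hybrid library as a block, MET14, MRP17 and REA1 no longer passed (adjusted p = 0.0704, 0.0704 and 0.0636). In the fit over 24 columns CHS1 and REA1 did not pass (adjusted p = 0.183 and 0.158).

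Against the S. paradoxus alleles, VMA16 differed by 5.43 (adjusted p = 0.00951), PGM1 by 3.89, THR1 by 3.68 and CWP1 by 3.58, and DUG1 by -8.26, TOR1 by -7.69 and BNA6 by -5.90. VMA16 of S. paradoxus had 586 and 524 in the hybrid and 2243 and 1774 in the homozygotes, the opposite direction to S. bayanus. In the fit over 24 columns CWP1 did not pass (adjusted p = 0.0548).

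Against the S. mikatae alleles, FTR1 differed by 4.15, PGM1 by 4.04, VMA16 by 3.97, RGT1 by 3.73, BRR2 by 2.63 and TTI1 by 2.32. On the lower side, DUG1 differed by -8.49, TOR1 by -8.24, TVS1 by -5.96, BNA6 by -5.52, VPS51 by -4.97, MET14 by -4.35 and GPP2 by -2.61. In the fit over 24 columns BRR2, TTI1 and TVS1 did not pass (adjusted p = 0.364, 0.170 and 0.0984). DUG1, TOR1 and BNA6 differed from all 3 other species. Differences of genes with scores at or near 0 depend on the added constant of 1, and PGM1, RGT1, CWP1, TTI1 and VPS51 lie on the Watson strand of chromosome XI.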

How the results depend on the processing

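The number of S. bayanus genes called was 47 and stayed between 44 and 54 under 4 other scalings, added constants of 0.5 and 10, no filter and thinned homozygotes. All 47 kept their sign under every setting in which they were tested. The genotypes did not overlap in any of the 47. Another constant, filter, trend or wider fit, or a left-out library, therefore could not reverse a sign, and the kept signs are no separate support. It was 30 with a mean of at least 100, 30 without the intensity trend, 18 for a minimum log2 fold change of 1, 196 over 8 columns, 264 over 24 columns and 0 without single libraries. Chosen after seeing the data, it was 5 without Watson-strand genes of chromosome XI, 4 without all genes of chromosome XI (TOR1, TVS1, YIL001W and TAH18), 199 over 24 columns without that strand, and over 24 columns 152 and 134 without hybrid replicates 1 and 2 and 132 and 162 without homozygote replicates 1 and 2. Over 24 columns the spread of all species is assumed to be alike; causes of the other shifts were not tested.

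The replicate differences of hybrid and homozygote, taken by replicate number, were uncorrelated across genes (r = 0.016). This correlation alone cannot show whether replicates of the same number shared a source. With a replicate block the count was 0 in limma, with 869 at an unadjusted p under 0.05. For the difference from S. cerevisiae alleles the block was the shared hybrid library, as above, and 39 genes differed. For the differences from S. paradoxus and S. mikatae alleles the replicate block gave 3 and 6.

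Those differences numbered 84, 13 and 35, and over 24 columns 128, 88 and 84. Without the Watson strand of chromosome XI (chosen later) S. paradoxus gave 3 and S. mikatae 10, and S. cerevisiae 64. Single libraries left out gave 0 to 47, 0 to 18 and 0 to 10; where this leaves 1 sample in a group, it is assumed to vary like the others. All 6 S. cerevisiae homozygote libraries gave 74. Of 1773 values of 73 named genes under other settings, 1462 kept sign and call, 303 lost a call, 8 gained one and 0 changed sign across a call. With 2 libraries a group, genes pass only where replicates agree closely, and columns near 0 or at the ceiling limit folds. The medians of the mitochondrial ribosomal, respiratory and ribosome biogenesis groups stayed at -0.94 to -0.81, 0.97 to 1.39 and 0.57 to 0.81.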

Other observations

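YHB1, a flavohemoglobin that detoxifies nitric oxide, was outside the genes named by rule and was chosen after its values were seen. Its S. bayanus allele had 93.2 and 89.4 in the hybrid and 3.17 and 5.45 in the homozygotes (log2 fold change 4.15, adjusted p = 0.0609), and its change exceeded that of the S. cerevisiae allele by 5.60 (adjusted p = 0.022). TEF4, a translation elongation factor on the Watson strand of chromosome XI, differed from TIF1 in its S. bayanus allele, which had 9774 and 14834 in the hybrid and 11525 and 20182 in the homozygotes. Its S. cerevisiae allele was low in the same libraries, as that of TIF1 was, with 98.6 and 52.3 in the hybrid and 3037 and 4676 in S. cerevisiae homozygotes.

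INH1, an inhibitor of the ATP synthase, and MIR1, the mitochondrial phosphate carrier, were chosen in the same way. Both were higher in the hybrid without passing (adjusted p = 0.0698 each), and their changes exceeded those of the S. mikatae alleles (adjusted p = 0.0452 and 0.0163).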
